A study of Mus musculus with 56 samples.

Results

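Heart RNA-seq libraries taken 4 h after lights on (zeitgeber time 4, ZT4) were compared between mice fed in the light phase and mice fed in the dark phase. The comparison rests on 8 of the 56 libraries of the series, chosen by their labels alone as every library labelled ZT4. DRF ZT4 and NRF ZT4 contributed 4 libraries each, described as biological replicates.

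All mice were females of the inbred strain C57BL/6J, 9 weeks old at collection, in a day with 12 h each of light and dark. Both groups had free access to chow for 7 days and were then held for 7 days on daytime-restricted feeding (DRF, food in the light phase) or nighttime-restricted feeding (NRF, food in the dark phase, when mice normally eat). The labels name no transgene and no drug, and they give the tissue as heart without naming a chamber. The series covers 7 ZTs under each regimen, and the comparison at ZT4 asks how the heart differs in the early light phase, when DRF mice are inside their food window and NRF mice are outside theirs.

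Cells keep daily time with a loop in which Clock or Npas2 pairs with Arntl (Bmal1) to switch on the Per and Cry genes, whose proteins then shut the pair off. The same activators drive Dbp, Tef and Hlf, transcription factors that pass the rhythm to further genes, while nuclear receptors such as Nr1d1, Nr1d2 and Rora close a further loop on Arntl. The heart burns mainly fatty acids, leans on them more during a fast, and takes up more glucose and stores more glycogen and fat after a meal. Insulin released by feeding restrains FOXO transcription factors, which otherwise switch on genes of protein breakdown.

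Levels are given in TPM, a read count scaled for gene length and library size, which was calculated afresh after the read counts had been worked out from the deposited table. The 8 libraries held 31.3 to 39.2 M (mega) reads, against 29.5 to 53.4 M over the series. Reads, mitochondrially encoded share (18.1% to 22.6%) and the share of the 10 most abundant genes (20.9% to 25.4%) gave two-sided exact permutation p values of 0.857, 0.971 and 0.914 between the regimens, where 4 against 4 allows no p below 0.0286. Depth therefore did not separate the regimens beyond the spread between libraries, and DRF ZT4 replicate 1 had neither the lowest nor the highest number of reads, though the highest of both shares. As the samples are bulk tissue, fewer cells of a type and less RNA per cell cannot be told apart.

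Comparison of each library with the means of all 14 groups showed a ZT4 library far from its label. Over the 500 genes that best separated the groups at the other ZTs, DRF ZT4 replicate 1 differed from the mean of the other 3 DRF ZT4 libraries by 0.430 on the log2 scale and from NRF ZT8 by 0.180, which made NRF ZT8 its nearest group. Conversely, NRF ZT8 replicate 1 lay 0.175 from DRF ZT4 and 0.398 from the other NRF ZT8 libraries. DRF ZT4 replicates 2, 3 and 4 were nearest to their own group, as were 53 of all 56 libraries. NRF ZT4 replicate 1 was nearest to NRF ZT24 by this distance (0.25, against 0.306 to its own group) and nearest to its own group by correlation. Why DRF ZT4 replicate 1 departs from its label was not tested. Counts of the lists are given with and without it, as are the differences of the genes described in detail.

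**Figure D1:**
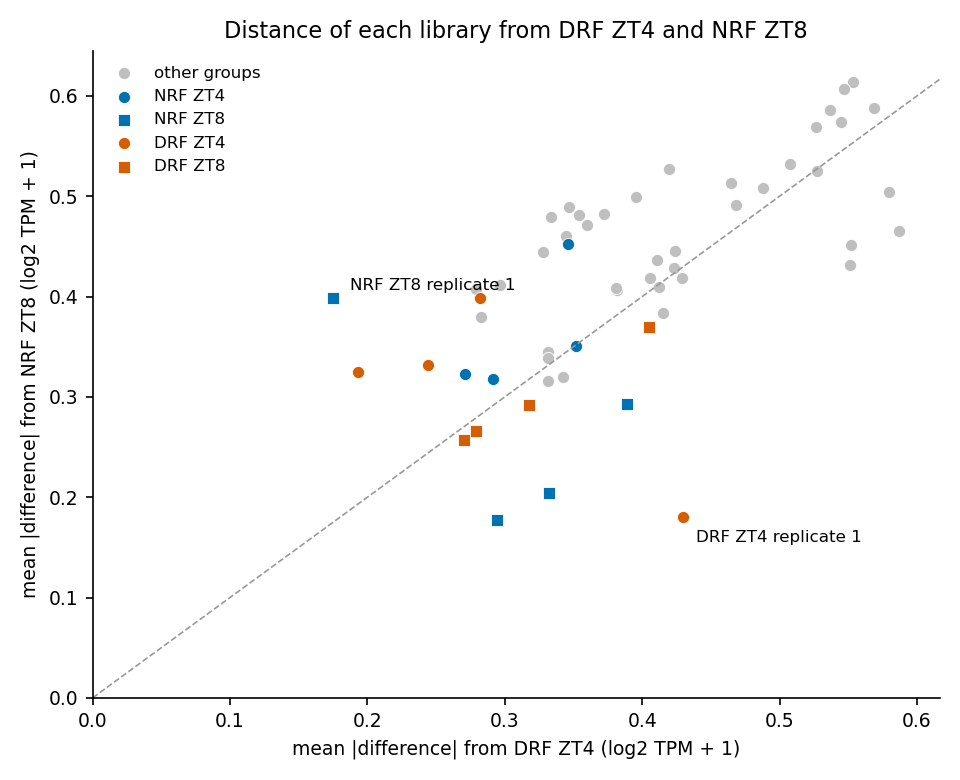
Mean absolute difference of each of the 56 libraries from DRF ZT4 (horizontal axis) and from NRF ZT8 (vertical axis) over 500 genes, in log2(TPM + 1), each library being left out of its own group's mean. DRF ZT4 replicate 1 sits at 0.430 and 0.180, on the NRF ZT8 side of the dashed line of equal distance, and NRF ZT8 replicate 1 at 0.175 and 0.398, on the other side.

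With all 8 libraries, 62 of 13869 tested genes (0.447%) differed between the regimens at ZT4. Of these, 46 were higher (0.332% of genes tested) and 16 lower (0.115%) under DRF. The list held clock repressors and outputs (Per2, Per3, Bhlhe41, Cry2, Tef, Hlf), the fat-synthesis regulator Mid1ip1 and the stress factor Ddit3 among the higher genes, and the transporter Slc41a3, the protease Adam19 and the activator Npas2 among the lower. The test was a limma contrast within a model of 14 group means on log2(TPM + 1), at a Benjamini-Hochberg adjusted p under 0.05. Of these 62 genes, 51 had regimens that did not overlap, against 2.88% of all genes tested. Their choice largely fixes that count, because the same 8 libraries gave the calls. The median absolute log2 difference of the 62 was 0.55, and 7 reached 1 on that scale. Rescaling the libraries by median-of-ratios gave 232 genes, 127 higher and 105 lower, so that the share of higher genes was 54.7% instead of 74.2%, and all 62 genes were among them. The balance turned on the deposited values, which are already on a log scale (55 higher, 86 lower), and without NRF ZT4 replicate 1 (30 higher, 37 lower).

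Leaving out DRF ZT4 replicate 1 raised the count to 362 genes (2.61%), 181 higher (1.31%) and 181 lower (1.31%). They included 60 of the 62 genes, all with the same sign, and the median absolute difference of the 362 was 0.47. Npas2 and the malic enzyme gene Me1 were the genes lost. The added calls included G0s2, Ppp1r3b, Creld2 and Hspa8 among the higher genes and Angptl4, Ucp3, Fbxo32 and Trim63 among the lower. With that library left out, median-of-ratios scaling gave 457 higher and 425 lower genes. Both counts draw on the spread of the other groups. With the 8 libraries fitted alone 1 gene passed (733 at an unadjusted p under 0.05), and without DRF ZT4 replicate 1 the remaining libraries gave 35 genes. The 1 gene was Sumo2, which encodes a small ubiquitin-like modifier and was chosen after its values were seen, at 14, 14.8, 21.4 and 13.7 TPM under DRF and 70.6, 56.8, 79.4 and 96.2 TPM under NRF. In the model of all groups Sumo2 had a log2 difference of -2.17 ± 0.66 and did not pass (limma adjusted p = 0.131), nor without replicate 1 (-2.12 ± 0.72, adjusted p = 0.101).

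Of the 19 clock genes, 7 passed with all 8 libraries, 6 of them higher under DRF, beside 0.447% of all genes called and 0.332% higher. Without replicate 1, 7 passed and 6 were higher, beside 2.61% and 1.31%. Per2 (ENSMUSG00000055866, GRCm38 chr1:91415982-91459324, minus strand), a repressor of the loop, stood at 5.92, 2.53, 3.80 and 2.96 TPM in DRF ZT4 replicates 1 to 4 and at 1.09, 0.642, 1.18 and 0.747 TPM in NRF ZT4. Every DRF library was above every NRF library, and replicate 1 was the highest. Mean Per2 was 3.80 ± 1.5 against 0.916 ± 0.262 TPM (SD, n = 4 each), 4.15-fold, with a log2 difference of 1.29 ± 0.24 (SE, limma adjusted p = 0.00213). Without replicate 1 the difference was 1.09 ± 0.25 (limma adjusted p = 0.00816).

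Its paralog Per3 (ENSMUSG00000028957, GRCm38 chr4:151003652-151044665, minus strand) was at 7.22, 2.69, 5.44 and 2.99 TPM under DRF and at 0.848, 1.61, 1.47 and 1.65 TPM under NRF. These groups did not overlap either, and the log2 difference was 1.16 ± 0.18 with all libraries (limma adjusted p = 0.000201) and 0.94 ± 0.18 without replicate 1 (0.0015). Bhlhe41, which encodes a transcriptional repressor of the same loop, reached 12.4, 6.98, 6.97 and 6.19 TPM against 3.27, 4.64, 3.54 and 4.18 TPM, again without overlap (log2 difference 0.86 ± 0.14, limma adjusted p = 0.000479, and 0.66 ± 0.13, adjusted p = 0.00365, without replicate 1). Cry2, whose protein works with the PER proteins, showed a smaller step, 12.0 ± 1.35 against 8.21 ± 1.02 TPM (log2 difference 0.49 ± 0.11, limma adjusted p = 0.0113, and 0.44 ± 0.11, adjusted p = 0.0241, without replicate 1).

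Among the output factors, Tef (ENSMUSG00000022389, GRCm38 chr15:81802421-81826863, plus strand) was at 54.0, 33.6, 40.3 and 30.7 TPM under DRF and 14.3, 22.2, 18 and 20.4 TPM under NRF. Its groups did not overlap, and the 2.11-fold difference (log2 difference 1.03 ± 0.16, limma adjusted p = 0.000201) was 1.86-fold without replicate 1 (0.87 ± 0.16, adjusted p = 0.00141). Hlf, a factor of the same family, was 2.05-fold higher (0.92 ± 0.15, limma adjusted p = 0.000264) and 1.85-fold higher without replicate 1 (0.80 ± 0.15, adjusted p = 0.00171). Dbp, the third member, was at 118, 37.4, 25.9 and 17.5 TPM against 7.80, 16.7, 10.5 and 13.5 TPM. Although no DRF library overlapped NRF, Dbp did not pass (log2 difference 1.61 ± 0.42, limma adjusted p = 0.063, and 1.07 ± 0.41, adjusted p = 0.156, without replicate 1). It passed in 4 of 22 alternative fits, median-of-ratios scaling with all 8 libraries among them. Replicate 1 was far above the other DRF libraries. Nfil3, a repressor at the same sites, had log2 differences of -0.08 and 0.28 in the 2 fits, neither of which passed.

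Activators lay on the other side. Arntl was at 1.94, 6.14, 5.75 and 7.15 TPM under DRF and 9.94, 9.06, 8.45 and 10.3 TPM under NRF, a separation without overlap that did not pass (log2 difference -0.84 ± 0.23, limma adjusted p = 0.0834, and -0.51 ± 0.21, adjusted p = 0.207, without replicate 1). Arntl passed in 2 of 22 alternative fits, voom with all 8 libraries among them. Npas2, the heart's alternative partner of Arntl, was at 1.34, 3.39, 3.11 and 3.45 TPM against 4.38, 5.30, 4.39 and 6.82 TPM. It passed with all libraries (-0.73 ± 0.18, limma adjusted p = 0.0346) and not without replicate 1 (-0.51 ± 0.17, adjusted p = 0.0944). Clock itself differed by -0.24 ± 0.09, or -0.21 ± 0.10 without replicate 1, and did not pass in either fit.

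The nuclear receptors gave no call with all libraries. Nr1d1 (REV-ERB alpha) was at 82.3, 58.8 and 55.2 TPM in DRF replicates 2 to 4, on both sides of the NRF range of 56.8 to 75.5 TPM, and at 139 TPM in replicate 1. Rora, an activator of Arntl, was lower under DRF without replicate 1 (-0.39 ± 0.10, limma adjusted p = 0.0217) and gave -0.28 (0.227) with it. Per1, Cry1, Ciart, Bhlhe40 and Nr1d2 passed in neither fit. In medians over the lists, the 8 repressors differed by 0.71 (0.44 without replicate 1), the 4 output factors by 0.97 (0.83) and the 3 activators by -0.73 (-0.51), beside -0.01 (-0.02) over all genes tested.

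Of 9 further clock-controlled genes, 2 passed in both fits, both higher (list median -0.02), beside 0.332% of all genes higher with all 8 libraries and 1.31% without replicate 1. Usp2, a circadian ubiquitin protease, was at 48.9, 35.4, 40.3 and 38.9 TPM under DRF against 18.6, 24.3, 21.9 and 19.9 TPM under NRF (log2 difference 0.92 ± 0.14, limma adjusted p = 0.000201, and 0.83 ± 0.15, adjusted p = 0.000749, without replicate 1). Wee1, a kinase that restrains entry into mitosis, was at 8.55, 10.8, 14.2 and 13.3 TPM against 5.47, 6.14, 4.68 and 8.09 TPM (0.84 ± 0.16, limma adjusted p = 0.00279, and 0.97 ± 0.17, adjusted p = 0.0006, without replicate 1). Replicate 1 was the DRF library nearest to NRF in Wee1 and the furthest from it in Usp2. The largest log2 difference of the 62 called genes belonged to Gm45819, a transcript of unknown function (GRCm38 chr7:110119990-110121740, plus strand) that ends 305 bases before Wee1 on the same strand. Gm45819 was at 4.26, 6.60, 13.6 and 10.7 TPM under DRF and 2.15, 2.40, 1.96 and 2.76 TPM under NRF (1.46 ± 0.26, limma adjusted p = 0.00108, and 1.72 ± 0.26, adjusted p = 9.2e-05, without replicate 1). An antisense gene, 1600010M07Rik, overlaps both, and the library kit does not mark strand, so reads of the strands cannot be told apart.

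**Figure D2:**
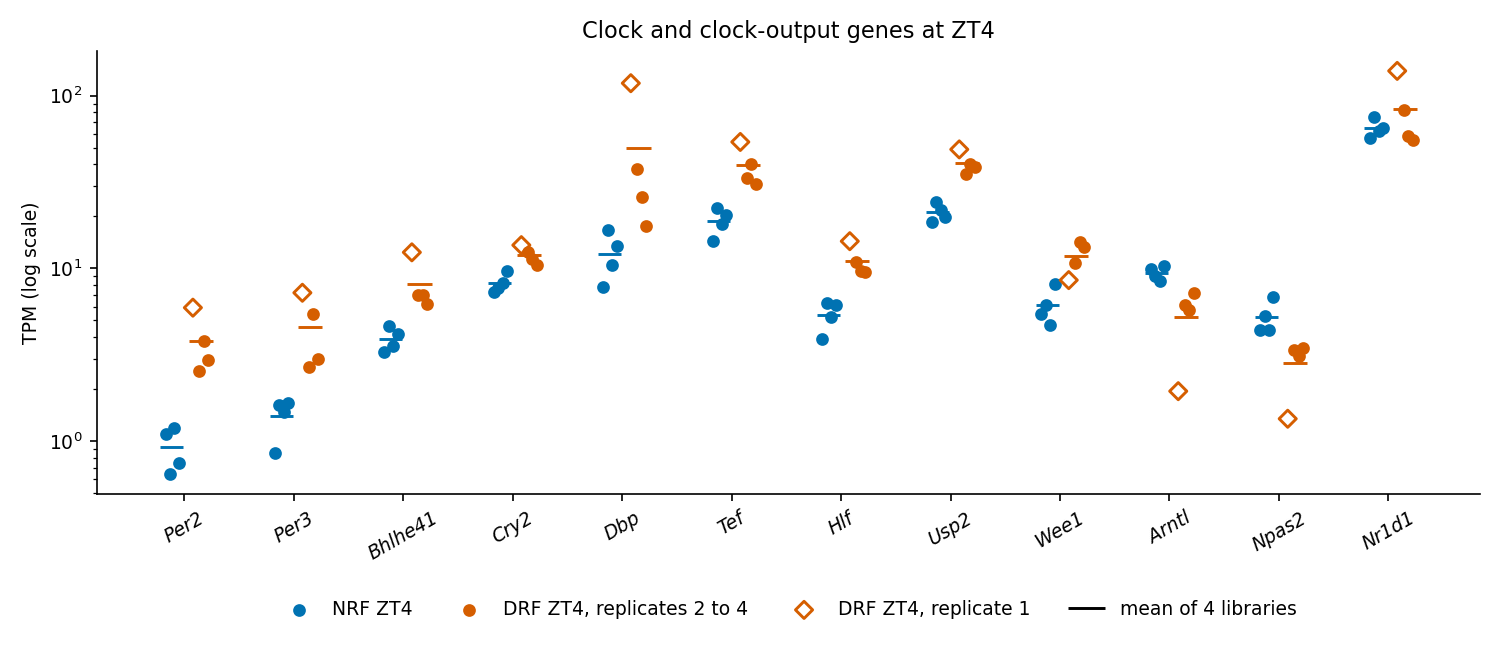
TPM on a log axis of 12 clock and clock-output genes in each library at ZT4, NRF in blue and DRF in orange, with DRF replicate 1 as an open diamond and bars at the mean of 4 libraries. Per2, Per3, Bhlhe41, Cry2, Dbp, Tef, Hlf, Usp2, Wee1, Arntl and Npas2 show no overlap between the regimens, and Nr1d1 overlaps. For Dbp and Nr1d1 replicate 1 lies above the other DRF libraries at 118 and 139 TPM.

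Because the activators bind the E-box and the output factors the D-box, both motifs were looked up in the RefSeq promoter windows (250 bases before to 50 after a start, GRCm38.p6), which held 16 of the 19 clock genes and 6 of the 7 called. The E-box CACGTG, which reads the same on both strands, was in the windows of 5 of the 16, beside 11.6% of 9907 tested genes with a window and 7.15% of all 32851 windows. The D-box, searched on both strands as TTATGTAA, TTACATAA or TTACGTAA, was in 1 of the 16, beside 0.858% of tested genes and 1.06% of all windows. Stretches of 30 bases around the motif (in capitals, 5′ to 3′ on the gene's strand) are shown for the 3 called genes that hold one, to set the letters beside genes whose values are given above. The E-box was in 2 of the 6 windows of called genes, and the other 3 clock genes that held it, Ciart, Cry1 and Per1, passed in neither fit.
Bhlhe41, chr6:145865556-145865585, minus strand: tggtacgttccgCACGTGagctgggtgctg
Tef, chr15:81802534-81802563, plus strand: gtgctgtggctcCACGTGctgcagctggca
Per3, chr4:151044852-151044881, minus strand: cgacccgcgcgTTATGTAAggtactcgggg
The window of a further Tef start held another E-box and that of Per3 another D-box. These are matches of letters in a window, with no measurement of binding.

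Set against the NRF time course, the DRF ZT4 mean of all 7 called clock genes lay between the NRF ZT4 and NRF ZT8 means, with and without replicate 1. Such an interval does not fix a time of day, because the DRF ZT4 mean of 6 of the 7 also lay between the NRF ZT20 and NRF ZT24 means, and that of Bhlhe41 between NRF ZT12 and NRF ZT16. Over all 19 clock genes the mean lay between those of NRF ZT4 and NRF ZT8 for 15, the exceptions including Cry1, Rora and Nfil3. Per2, for example, was at 0.916 ± 0.262 TPM in NRF ZT4, 3.80 ± 1.5 in DRF ZT4 and 5.76 ± 1.75 in NRF ZT8, and Tef at 18.7 ± 3.42, 39.6 ± 10.4 and 57.6 ± 14.1 TPM. In each of the 7 genes replicate 1 was the DRF library furthest from NRF ZT4.

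NRF ZT8 replicate 1 enters those NRF ZT8 means. It was at 19.9 TPM for Dbp while the other NRF ZT8 libraries were at 116, 148 and 157 TPM, and at 5.94 TPM for Arntl while the others were at 1.82, 0.876 and 1.91 TPM. DRF ZT4 replicate 1, at 118 TPM for Dbp and 1.94 TPM for Arntl, was on the side of those others for both genes.

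**Figure D3:**
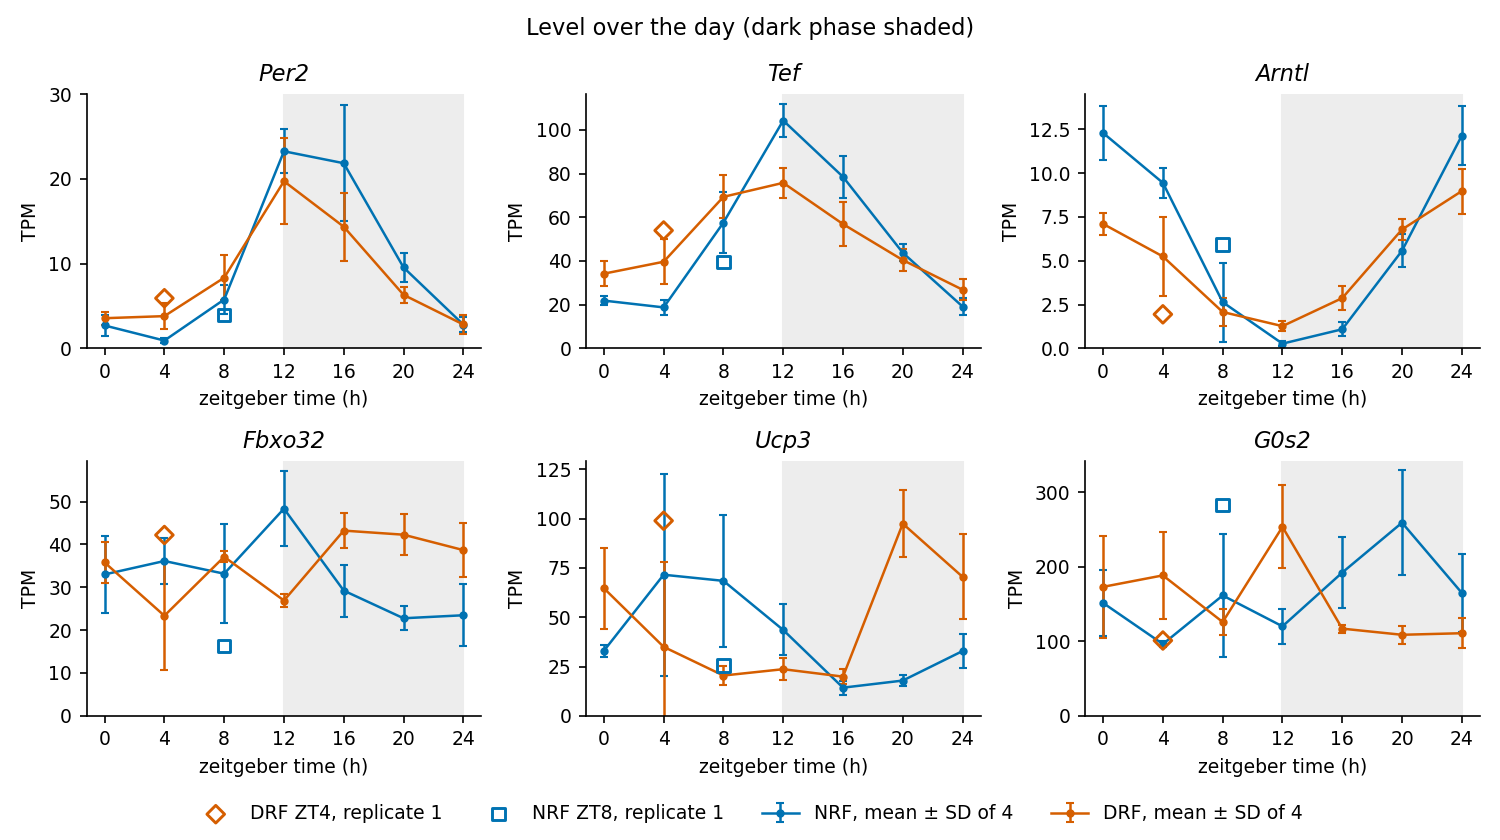
Mean ± SD TPM (n = 4) of 6 genes over the day under NRF (blue) and DRF (orange), with the dark phase shaded, DRF ZT4 replicate 1 as an open diamond and NRF ZT8 replicate 1 as an open square. At ZT4 Per2 and Tef lie between the NRF ZT4 and NRF ZT8 means, and for Ucp3 replicate 1 stands at 99.0 TPM, far above the 8.55 to 18.1 TPM of the other DRF libraries.

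Genes of the fasting response differed in direction from one another. The share of all genes called, to be read beside the counts of this list and of those that follow, was 0.332% higher and 0.115% lower with all 8 libraries, and 1.31% in each direction without replicate 1. At an unadjusted p under 0.05 there were 1668 of 13869 genes tested with all 8 libraries and 2290 without replicate 1. Of 13 tested PPAR-responsive fasting genes, 1 was higher with all libraries and none was lower (list median 0.05).

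In the limma fits, 4 of these genes, all lower, passed without replicate 1 and not with it. Among the alternatives that kept replicate 1, Angptl4 passed with median-of-ratios scaling, Ucp3 with arrayWeights, and Angptl4 and Ehhadh without NRF ZT4 replicate 2. Angptl4, an inhibitor of lipoprotein lipase, was at 3.04, 2.59 and 1.28 TPM in DRF replicates 2 to 4, at 14.2 TPM in replicate 1 and at 15.3, 3.70, 45.4 and 54.1 TPM under NRF. Ucp3, a mitochondrial carrier that rises with fatty acid supply, was at 18.1, 14.3 and 8.55 TPM, at 99.0 TPM in replicate 1 and at 32.0, 24.1, 104 and 126 TPM under NRF. In both genes NRF replicates 3 and 4 were well above NRF replicates 1 and 2, and replicate 1 fell inside the NRF range. Without it the log2 differences were -2.71 ± 0.59 for Angptl4 (limma adjusted p = 0.00639) and -2.03 ± 0.38 for Ucp3 (0.00141). With it they were -2.15 (0.0715) and -1.33 (0.168).

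Ehhadh, an enzyme of peroxisomal oxidation, and Cpt1a, which admits long-chain fatty acids to mitochondria, likewise passed without replicate 1 (-0.84 ± 0.17 and -0.57 ± 0.16, limma adjusted p = 0.00365 and 0.0456, against -0.58 and -0.33 with it). Of 10 peroxisomal genes 1 was higher with all 8 libraries, and 1 was higher and 1 lower without replicate 1. The fasting list had 1 gene higher and 4 lower of 13 in that fit, with a median of 0.03. Of 20 mitochondrial beta-oxidation genes, Eci1, an enoyl-CoA isomerase, was higher and Cpt1a lower without replicate 1, and none passed with all 8 (6 at an unadjusted p under 0.05, 0 by voom and 1, higher, by arrayWeights). Pex11a, which promotes peroxisome division, was 16 ± 1.4 against 12.0 ± 0.389 TPM (0.38 ± 0.09, limma adjusted p = 0.0185, and 0.36 ± 0.09, adjusted p = 0.0222, without replicate 1), with regimens that did not overlap. Of the 4 genes of ketone use, Oxct1, which starts ketone oxidation, was lower (-0.43 ± 0.08, limma adjusted p = 0.00164) and Slc16a1, a monocarboxylate carrier, higher (0.45 ± 0.11, adjusted p = 0.0185) without replicate 1. With it they had -0.33 (adjusted p = 0.0606) and 0.32 (0.209) and did not pass by limma, while voom and median-of-ratios scaling called 1 gene of this list lower, and arrayWeights 1 higher and 1 lower.

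Mid1ip1, G0s2, Ppp1r3b and Angptl8 were higher under DRF without replicate 1. Mid1ip1, a partner of acetyl-CoA carboxylase in fat synthesis, passed in both fits, at 86.9, 100, 107 and 101 TPM under DRF against 48.9, 70.8, 47.7 and 48.5 TPM under NRF (0.88 ± 0.16, limma adjusted p = 0.00222, and 0.94 ± 0.18, adjusted p = 0.0015, without replicate 1). G0s2, an inhibitor of the lipase ATGL, was at 211, 227 and 214 TPM in DRF replicates 2 to 4 and at 90.9 to 99.1 TPM in all NRF libraries, while replicate 1 stood at 101 TPM. Its log2 difference was 1.17 ± 0.27 without replicate 1 (limma adjusted p = 0.00835) and 0.89 ± 0.26 with it (0.114). Ppp1r3b, which targets protein phosphatase to glycogen, was at 16.6, 21.2 and 21.3 TPM, against 8.83 TPM in replicate 1 and 7.64 to 9.98 TPM under NRF (1.08 ± 0.26 without replicate 1, limma adjusted p = 0.013, and 0.82 with it, 0.148). Angptl8, induced by feeding in fat and liver, was 7.10-fold higher at low levels without replicate 1, 2.39 ± 1.54 (n = 3) against 0.337 ± 0.167 TPM (1.25 ± 0.36 on the log2(TPM + 1) scale, limma adjusted p = 0.0479), and had 1.07 with it (0.153). Angptl8 lies within Dock6 on the opposite strand, and G0s2 overlaps Lamb3 in the same way, so reads of those genes cannot be told from theirs.

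In all, 2 of 17 genes of glucose use and glycogen were higher (Ppp1r3b and Ppp1r3c) and 1 lower (Pdp2, a phosphatase that activates pyruvate dehydrogenase) without replicate 1, beside 1.31% of all genes in each direction, and none passed with all 8 libraries (1, higher, by arrayWeights). Of the 16 lipogenic genes the desaturase gene Scd2 was higher without replicate 1, and in the limma fits Me1 passed with all libraries and not without replicate 1 (0.31 ± 0.08, limma adjusted p = 0.0466, and 0.0515 without replicate 1). Without replicate 1 the medians of the glucose and lipogenic lists were -0.04 and 0.23, and with it -0.03 and 0.18. Of 13 genes of lipid uptake and lipolysis, limma called G0s2 without replicate 1 and none with all 8 libraries (6 at an unadjusted p under 0.05). Voom called 2 of them, both higher, with all 8, and 3 higher and 2 lower without replicate 1. The list median was 0.01, and -0.02 without replicate 1.

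Of 23 insulin- and FOXO-responsive genes 5 were lower and none higher without replicate 1, where 1.31% of all genes were lower, against 0 called with all 8 libraries (6 at an unadjusted p under 0.05, 2 lower by voom), and the list medians were -0.15 and -0.14. Fbxo32 (atrogin-1), a ubiquitin ligase of muscle wasting, was at 17.1, 16.3 and 17.9 TPM in DRF replicates 2 to 4, 42.2 TPM in replicate 1 and 30.9 to 43.8 TPM under NRF (-1.03 ± 0.20 without replicate 1, limma adjusted p = 0.00253, and -0.71 with it, 0.135). Trim63 (MuRF1), a second ligase of this kind, was at 109, 109 and 112 TPM, then 160 TPM in replicate 1, and 134 to 185 TPM under NRF (-0.50 ± 0.13 without replicate 1, limma adjusted p = 0.0219, and -0.37 with it, 0.201). Both genes put replicate 1 inside the NRF range. Irs1, the insulin receptor substrate, Ccng2, a cyclin, and Txnip, an inhibitor of glucose uptake named after its values were seen, completed the 5, with log2 differences of -0.48, -0.54 and -1.15, against -0.49, -0.42 and -0.83 with replicate 1. Klhl38, which encodes a muscle kelch protein, had a difference of -1.40 ± 0.27 without replicate 1 (limma adjusted p = 0.00211, and -0.95 with it, 0.15), at 2.53 to 3.58 TPM against 7.36 to 13.0 TPM.

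**Figure D4:**
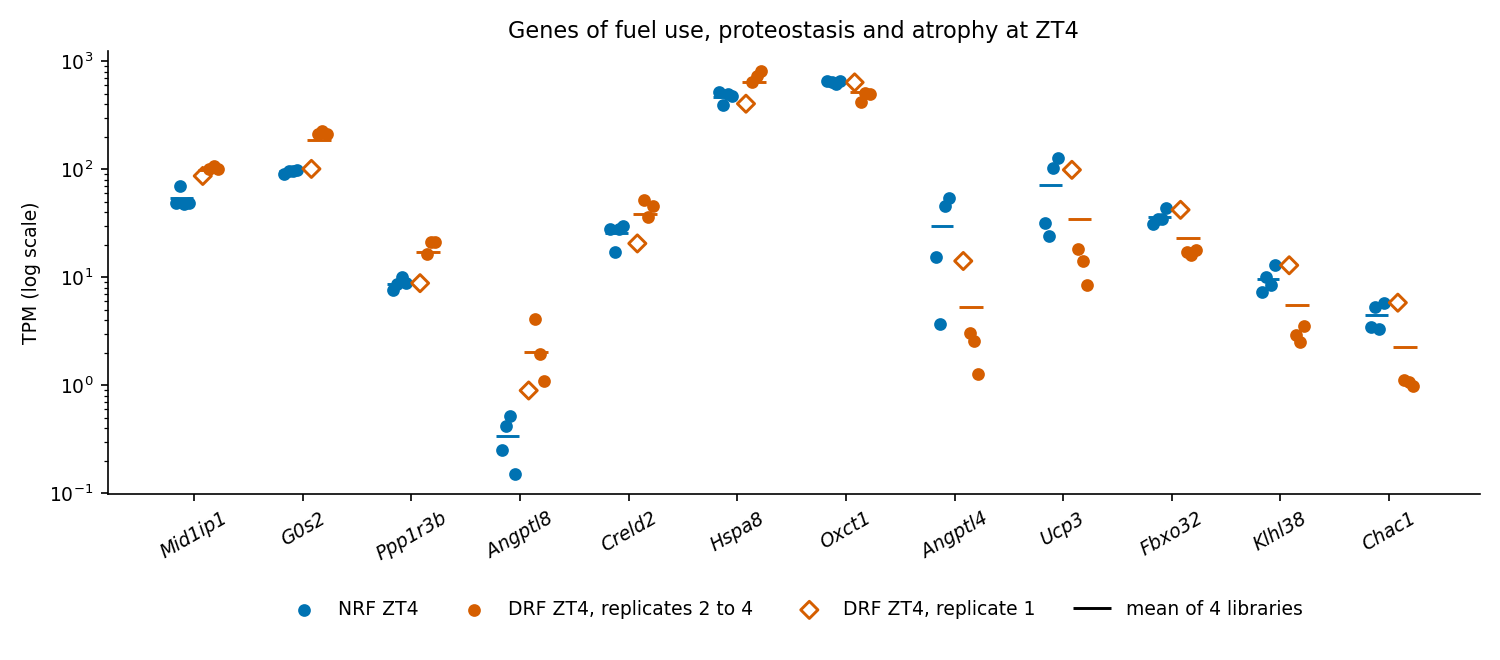
TPM on a log axis of 12 genes of fuel use, protein folding and protein breakdown in each library at ZT4, NRF in blue and DRF in orange, with DRF replicate 1 as an open diamond and bars at the mean of 4 libraries. Replicate 1 lies with NRF for G0s2 (101 TPM), Ppp1r3b, Creld2, Hspa8, Ucp3 (99.0 TPM), Fbxo32, Klhl38, Chac1 and Oxct1 (638 TPM), and closer to the other DRF libraries for Mid1ip1.

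Of 16 ER chaperone and unfolded protein response genes, 7 were higher without replicate 1 (Creld2, Dnajc3, Hyou1, Pdia4, Manf, Sdf2l1 and Xbp1), none was lower and 9 did not pass, where 1.31% of all genes tested were higher. Manf, Sdf2l1 and Xbp1 were named after their values were seen. The list median was 0.33. All 16 differences were above 0. With all 8 libraries none passed (5 at an unadjusted p under 0.05, 0 by voom) and the median was 0.25. Creld2, a chaperone partner of the ER, was at 52.5, 36.5 and 45.7 TPM in DRF replicates 2 to 4, 20.6 TPM in replicate 1 and 17 to 29.9 TPM under NRF (0.80 ± 0.17 without replicate 1, limma adjusted p = 0.0059, and 0.53 with it, 0.205). Of 14 temperature-responsive genes 3 chaperones were higher without replicate 1, namely the co-chaperone Bag3, the HSP70 member Hspa8 (648, 728 and 816 TPM, against 405 TPM in replicate 1 and 393 to 515 TPM under NRF) and the HSP90 gene Hsp90aa1. The other 11 did not pass, beside the same 1.31% of all genes higher. That list had a median of 0.46, and 0.31 with replicate 1, when none passed (5 at an unadjusted p under 0.05, 0 by voom).

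The amino acid response did not move as one. Ddit3 (CHOP), a stress transcription factor, was higher in both fits, at 16.8, 34.3, 29.9 and 28.2 TPM against 17.4, 13.4, 13.3 and 12.8 TPM (0.86 ± 0.15, limma adjusted p = 0.00125, and 1.07 ± 0.14, adjusted p = 3.04e-05, without replicate 1). Chac1, a glutathione-degrading enzyme switched on by the same response, was lower without replicate 1, at 1.12, 1.08 and 0.996 TPM against 3.51, 5.35, 3.32 and 5.78 TPM (-1.38 ± 0.29, limma adjusted p = 0.00419, and -0.95 with replicate 1, 0.163). Replicate 1 held 5.83 TPM of Chac1, and it was the only DRF library to overlap NRF for Ddit3. The other 11 of the 13 listed genes passed in neither fit, and the median was -0.13 in both. Ddit3 overlaps Mars on the opposite strand, so its reads may include some of that gene.

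Among the genes lower under DRF in both fits, Tmem171, a membrane protein gene, was at 2.15, 3.44, 4.08 and 4.51 TPM under DRF and 9.67, 7.40, 6.79 and 11 TPM under NRF (-1.10 ± 0.20, limma adjusted p = 0.00213, and -0.94 ± 0.21, adjusted p = 0.00803, without replicate 1). Slc41a3 (ENSMUSG00000030089, GRCm38 chr6:90604725-90646412, plus strand), a magnesium carrier, was at 49.5, 36, 32.0 and 39.9 TPM against 75.1, 99.5, 68.5 and 90.2 TPM (-1.07 ± 0.16, limma adjusted p = 0.000201, and -1.18 ± 0.17, adjusted p = 3.04e-05, without replicate 1). Adam19, a metalloprotease of heart development, was at 9.35 to 11.3 TPM under DRF and 15.7 to 28.2 TPM under NRF (-0.98 ± 0.16, limma adjusted p = 0.000339, and -0.99 ± 0.17, adjusted p = 0.000629, without replicate 1). None of these genes overlapped between regimens, and replicate 1 stood with its group.

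Further lower genes were Adamts4, a matrix protease (-0.80), Pnrc1, a nuclear receptor coregulator (-0.77), Hs3st5, a heparan sulfate sulfotransferase (-0.77), Igfals, which stabilises circulating IGF complexes (-0.65), Retreg1, a receptor for degradation of the ER (-0.65), and Gm19522, an antisense transcript within Zbtb20 (-0.55). Without replicate 1 these 6 differences were -0.73, -0.91, -0.94, -0.79, -0.88 and -0.66, and all passed. Hs3st5 was at 2.23 TPM or less in every ZT4 library. For Retreg1 replicate 1, at 112 TPM, stood inside the NRF range of 96.7 to 121 TPM, while the other DRF libraries were at 52.9 to 62.5 TPM. Dok7, an adaptor of the neuromuscular junction, and Ier3, an early response gene, were higher in both fits (0.85 ± 0.15 and 0.71 ± 0.17, limma adjusted p = 0.00133 and 0.0246, and 1.03 and 0.82 without replicate 1), and Ier3 was the only one of 14 immediate early genes to pass in the limma fits. Rtn4r, a receptor that limits nerve outgrowth, was higher and the transferrin receptor gene Tfrc, 2210407C18Rik and the pseudogene CT025601.1 lower by limma without replicate 1 and not with it. Voom and median-of-ratios scaling called Tfrc and 2210407C18Rik lower with all 8 libraries too. Tfrc was the only one of 8 iron genes to pass in the limma fit without replicate 1.

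Lists of cholesterol synthesis, glucocorticoid response, taurine and sulfur amino acids, AhR targets and metallothioneins, ion channels and calcium handling, sarcomere, mitochondrially encoded mRNAs and proliferation gave 0 calls among 94 tested genes in both limma fits. At an unadjusted p under 0.05 there were 25 of these with all libraries and 26 without replicate 1. Over all 13869 genes tested the same threshold gave 1668 and 2290. Voom called 1 and 3 of the 94, and median-of-ratios scaling 2 and 5, in the same order. Among them Cyp51 and Msmo1 (sterol synthesis), Cdkn1a, Mt1, Cth, Cdo1, Nqo1, the sodium-calcium exchanger gene Slc8a1, Myh7, Tnnc1, mt-Co2, mt-Nd1, Mcm3 and Aurka had adjusted p values above 0.05 in both fits. The potassium channel gene Kcnh2 had the lowest of these with all libraries (0.44 ± 0.12, limma adjusted p = 0.0932, and 0.40 ± 0.13, adjusted p = 0.0994, without replicate 1), at 48.0 to 57.3 TPM under DRF and 31.9 to 47.1 TPM under NRF.

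Proliferation genes had a median of -0.56 (-0.65 without replicate 1), with all 14 tested genes below 0, 9 of them at an unadjusted p under 0.05 and none called by limma in either fit. Without replicate 1, voom called 1 of them and median-of-ratios scaling 2, all lower. Markers of some other cell types lay below 0 as well with all 8 libraries, in 6 of 6 endothelial genes (median -0.18), 6 of 6 macrophage genes (-0.24) and 4 of 4 neutrophil and platelet genes (-0.47), none called. Summed endothelial markers were at 801 to 1044 TPM under DRF and 1040 to 1351 TPM under NRF, macrophage markers at 767 to 1231 and 978 to 1230 TPM, and neutrophil and platelet markers at 77.7 to 164 and 111 to 171 TPM. All these ranges overlapped, and the part of these cells in the proliferation genes was not tested.

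The 7 genes listed for the ventricular cardiomyocyte (Myh6, Tnnt2, Tnni3, Actc1, Ryr2, Myl2 and Myl3) were high in all libraries. Their sum was 29160 to 37316 TPM under DRF and 32230 to 38291 TPM under NRF, and it was not used to tell ventricle from atrium. The 63 tested markers of 15 cell types gave 0 calls in either fit, and 0 by voom. At an unadjusted p under 0.05 there were 3 and 5 of them, beside 1668 and 2290 of the 13869 genes tested. Atrial markers (Myl7, Myl4, Sln, Nppa, Bmp10) had sums of 381, 5012, 277 and 1283 TPM in DRF replicates 1 to 4 and 162, 1153, 240 and 128 TPM in NRF. All 5 were higher on average under DRF (median log2 difference 2.28, none called), and Bmp10 was at 0 in 1 DRF and 2 NRF libraries. Kcnj5, a potassium channel gene used strongly by atria and chosen after its values were seen, was at 43.8, 59.0, 54.0 and 64.4 TPM against 28.2, 39.3, 33.1 and 31.9 TPM (0.72 ± 0.11, limma adjusted p = 0.000201, and 0.82 ± 0.11, adjusted p = 3.04e-05, without replicate 1), and the part of atrial tissue in it was not tested. Red cell markers summed to 66737 TPM in DRF replicate 2 and 33088 TPM in NRF replicate 3, against 1667 to 12318 TPM in the other 6 libraries. Mesothelium was highest in DRF replicate 2 too, at 197 TPM against 4.47 to 52.0 TPM elsewhere.

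The differences at ZT4 were set against those at ZT16, where the phase of food access is reversed, and at ZT8, the next time in the same light phase. No library is shared between the times. The DRF minus NRF difference at ZT4 differed from that at ZT16 in 1013 genes (7.3%), 865 of them more positive and 148 more negative at ZT4, and from that at ZT8 in 106 genes (0.764%). Under median-of-ratios scaling the split against ZT16 was 620 and 450. Of the 62 genes called at ZT4, 56 passed against ZT16, a count that their choice largely fixes, because the ZT4 difference that chose them is part of that contrast. The difference at ZT16 alone rests on libraries that do not enter the ZT4 difference. These libraries did add to the spread and the mean level used in choosing the genes. The sign at ZT16 was the opposite one in 55 of the 62 (88.7%), beside 53.1% of all genes tested. Per2, for example, was higher by 1.29 at ZT4 and had a difference of -0.56 at ZT16 (difference between times 1.85, limma adjusted p = 0.000292). Slc41a3 went from -1.07 to 1.08, and Mid1ip1 from 0.88 to -0.72 (limma adjusted p = 1.68e-08 and 1.27e-05).

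The 6 called genes that did not pass against ZT16 included Adamts4 and Gm19522 and, named after their values were seen, Lrrc8b, Tmem47 and Cox6b2. Gm19522 had nearly the same difference at both times, -0.55 at ZT4 and -0.60 at ZT16. Against ZT8, 24 of the 62 genes passed, with the same limit, among them Usp2 (0.92 at ZT4, -0.40 at ZT8, limma adjusted p = 0.000169), Bhlhe41 (0.86 and -0.36, 0.000899) and Tmem171 (-1.10 and 0.63, 0.000899). Of the 19 clock genes 12 passed against ZT16, and Bhlhe41 alone against ZT8. The ZT8 contrast includes NRF ZT8 replicate 1. Without DRF ZT4 replicate 1 the counts were 1092 against ZT16 and 206 against ZT8, and 263 and 115 of the 362 genes were among them.

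**Figure D5:**
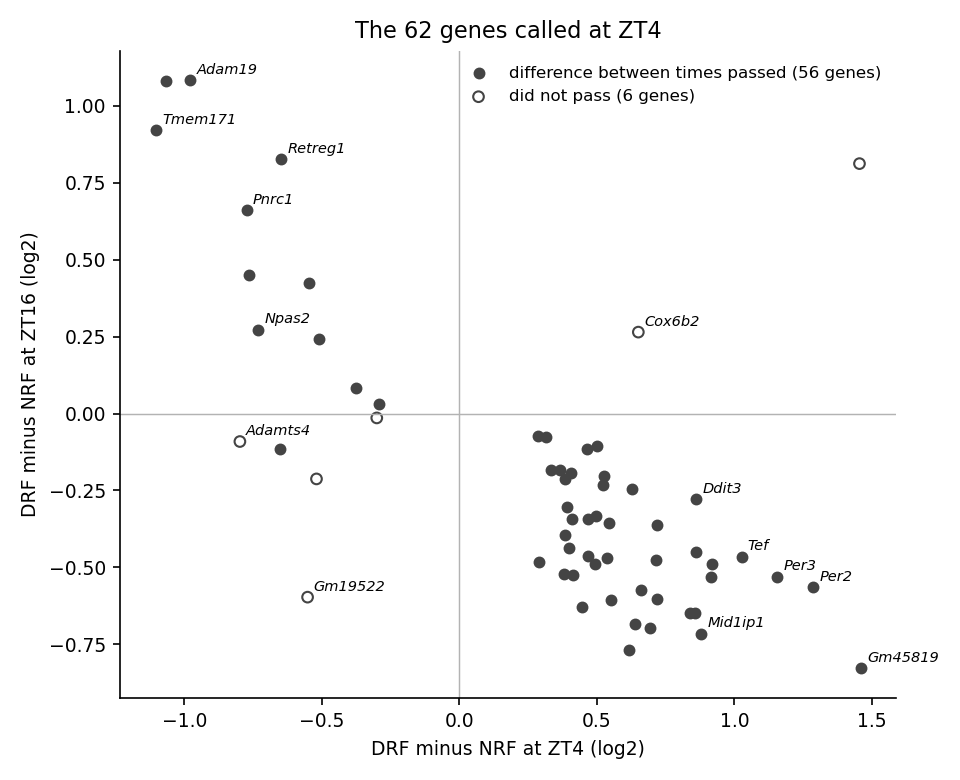
DRF minus NRF log2 difference at ZT4 (horizontal axis) and at ZT16 (vertical axis) for the 62 genes called at ZT4, filled where the difference between the times passed (56 genes) and open where it did not (6 genes). Of the filled points 55 have opposite signs at the 2 times, and Gm19522 is an open point at -0.55 and -0.60.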

How the data were processed

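PolyA RNA of hearts was sequenced in 56 libraries (NEBNext Ultra, paired reads of 150 bases, no molecular identifiers, so PCR copies stay in the reads). The submitters' processing notes name HISAT2 2.0.5, featureCounts 1.5.0-p3 and the build mm10, with no roles given, and the use of strand is not given in the sources used here. The values deposited by the authors are named TPM, but they are another unit: a library constant times log2(1 + depth-scaled reads), divided by exon length. Raw deposited values were therefore not used as TPM in the main fits, though the design had allowed for that. The alternative on the deposited values took log2(value + 1), a second log of values already on a log scale.

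Whole reads were recovered by fitting that form, with exon lengths from GENCODE M21 (GRCm38). The annotated length gave whole reads for 22020 of 22864 genes, a searched length served 832 (797 of them on chromosomes 17 to 19), and 12 very abundant genes kept the annotated length untested. Of 1279572 values, 99.9996% came within 0.1 of a whole read. The recovery was also run on data made with the same formula from shuffled reads, where 100% of values gave exact reads. That run tests the fitting and cannot test the assumed form, which made its data. No pair of libraries was identical. TPM was recomputed, and 13869 genes whose mean level across the 56 libraries reached 1 TPM were tested on log2(TPM + 1), a scale that understates differences of low genes.

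Groups came from the labels. The contrast was fitted in limma 3.58.1 (R 4.3.3) with 14 group means and eBayes with trend, which lends the spread of all groups to 4 libraries a group, and repeated without DRF ZT4 replicate 1. Interactions with ZT16 and ZT8 were contrasts in the same model. Single values were tested by exact permutation with scipy 1.17.1. Named genes were the 10 largest called differences in each direction, 5 more in each direction without DRF ZT4 replicate 1, up to 4 called members (or 2 with the lowest p) of each of 26 function and 15 marker lists, and 19 clock genes. Genes outside this rule are described as chosen after their values were seen, and some genes under it are not reported here. Members, lists and rule were chosen with earlier results of these data known. Promoter windows are RefSeq's. Alternatives were other scalings, pseudocounts, filters, weights, a replicate block, voom and each library left out.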

Additional observations from a re-analysis of the deposited data

Results flagged for a closer look

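In groups of 4 libraries, a highest or lowest value whose gap to the next passed Dixon's critical share of the group's range was noted for 18 of 264 groups. Chance gives about 1 in 20 for groups not chosen by their values, a rate that does not apply here, since some of these genes were named because they passed without DRF ZT4 replicate 1 and not with it. That library accounted for 10 of the 18. It was the highest DRF library for Bhlhe41 (12.4 TPM), Igfals (4.83 TPM), Fbxo32 (42.2 TPM), Trim63 (160.1 TPM), Chac1 (5.83 TPM) and the repressor gene Klf11 (10.1 TPM). It was the lowest for Npas2 (1.34 TPM), G0s2 (101 TPM), the cardiac factor gene Nkx2-5 (93.8 TPM) and the coactivator gene Cited4 (36.8 TPM). Klf11, Nkx2-5 and Cited4 were chosen after their values were seen. The other 8 were Mid1ip1 (70.8 TPM, highest) and Creld2 (17 TPM, lowest) in NRF replicate 2, Ddit3 (17.4 TPM, highest) in NRF replicate 1, Pex11a (12.6 TPM) and the adipocyte gene Plin1 (2.84 TPM), both highest in NRF replicate 3, Aurka (5.59 TPM, highest) in NRF replicate 4, and Cyp51 (5.72 TPM) and the fibroblast gene Lum (96.5 TPM), both lowest in DRF replicate 4.

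The DRF minus NRF difference changed between ZT4 and ZT16 in 1013 genes and between ZT4 and ZT8 in 106 genes (limma interaction contrasts). Among the named genes, the log2 difference at ZT4 minus that at ZT8 was 1.31 for Usp2, 1.22 for Bhlhe41, 1.19 for Dok7, 1.14 for Ddit3, 1.12 for Ier3, 0.91 for Mt1, 0.69 for Kcnh2 and 0.57 for Pex11a. It was -1.73 for Tmem171, -1.39 for Hs3st5, -1.27 for Adam19 and -0.74 for Slc8a1. The calcium channel gene Cacna1h (1.03), the carrier gene Slc25a29 (0.91) and Coq10b (1.07), chosen after their values were seen, passed as well.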

How the results depend on the processing

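The count of 62 genes at ZT4 became 232 with median-of-ratios scaling, 141 on the deposited values, 155 with voom, 188 with arrayWeights and 1 with the 8 libraries fitted alone, or 35 alone without DRF ZT4 replicate 1. Leaving out each library in turn gave 28 to 362 genes, with 362 without DRF replicate 1, 28 without DRF replicate 3 and 29 without DRF replicate 4. Chosen after seeing the data, leaving out DRF ZT4 replicate 1 gave 882 with median-of-ratios scaling and 633 with voom, and leaving out NRF ZT8 replicate 1 too gave 479. Pseudocounts of 0.1 and 10 gave 63 and 62, no filter 55 and a mean of at least 5 TPM 59. Replicate numbers did not pair the samples (correlations of same-numbered deviations -0.17, 0.02, -0.17 and -0.14), and the fit with a replicate block called 63 genes, 59 of them shared. Against ZT16 the count of 1013 was 1666 with arrayWeights and 605 to 1305 over libraries left out, 605 without DRF ZT16 replicate 4. Against ZT8 the count of 106 was 203 with median-of-ratios scaling, 195 with voom, 373 and 345 with these scalings without DRF ZT4 replicate 1, and 48 to 206 over libraries left out. It was 206 without DRF ZT4 replicate 1, 60 without DRF ZT4 replicate 2, 58 without DRF ZT4 replicate 3, 64 without NRF ZT4 replicate 1, 50 without DRF ZT8 replicate 2, 162 without NRF ZT8 replicate 3 and 48 without NRF ZT8 replicate 4. Without DRF ZT4 replicate 1 the difference in reads turned from 0.545 to -0.329 M and that in the share of the 10 most abundant genes from 0.145 to -0.521 percentage points. Over the alternatives in which each of 132 named genes was tested (22 at most), no log2 difference called in either of the fits compared changed sign. Calls were lost, however. Fitting the 8 libraries alone lost all 32 named genes called in the main fit. Me1 lost its call in 12 of 22 alternatives, Npas2 and Slc25a47 in 11 of 21, Prkar1a in 9 of 22 and Retreg1 in 8 of 22. The causes were not tested.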

Other observations

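Genes outside the named lists, chosen after their values were seen, passed in both fits as well. Cipc, which encodes a partner of CLOCK, was at 23.4, 24.8, 27.0 and 26.8 TPM under DRF and 18.7, 18.9, 17.9 and 18.2 TPM under NRF (log2 difference 0.45 ± 0.09, limma adjusted p = 0.00864, and 0.48 without DRF ZT4 replicate 1). Coq10b, a gene of coenzyme Q function, was at 15.8, 14.2, 15.4 and 12.2 TPM against 9.43, 6.99, 7.55 and 9.55 TPM (0.72 ± 0.13, limma adjusted p = 0.00235, and 0.68 without it). The mitochondrial carrier genes Slc25a29 and Slc25a47 were higher (0.62 and 0.47, and 0.73 and 0.57 without it), as was Cox6b2, a testis-type subunit of cytochrome oxidase (0.65, and 0.81 without it). Prkar1a, a regulatory subunit of protein kinase A, was lower (-0.29, limma adjusted p = 0.0236, and -0.31 without it) and did not overlap between the regimens.

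Other genes chosen in that way passed by limma without DRF ZT4 replicate 1 and not with all 8 libraries, though median-of-ratios scaling called Hif1a, Glul, Apln and Cacna1h with all 8 too. The hypoxia factor gene Hif1a, the glutamine synthetase gene Glul, the pro-apoptotic gene Bcl2l11, the arrestin-domain gene Arrdc4 and the peptide gene Apln were lower (-0.63, -0.74, -0.80, -0.46 and -1.05, against -0.48, -0.57, -0.57, -0.42 and -0.91 with it). The coactivator gene Cited4, Cacna1h, Nkx2-5 and Tigar, a regulator of glycolysis, were higher (1.01, 0.74, 0.38 and 0.37, against 0.67, 0.71, 0.28 and 0.25 with it). For Hif1a, Glul and Bcl2l11 replicate 1, at 30.8, 201 and 7.46 TPM, lay inside the NRF range, while the other DRF libraries were at 18.5 to 21.0, 105 to 146 and 3.18 to 3.81 TPM.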
